A study of Mus musculus with 10 samples.

Results

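The iron handling genes described here are ferroportin (Slc40a1), hepcidin (Hamp), ceruloplasmin (Cp), hephaestin (Heph), the transferrin receptor (Tfrc), the iron transporters Slc11a2 and Slc11a1, the ferritin heavy chain (Fth1), haem oxygenase 1 (Hmox1) and lipocalin 2 (Lcn2). They were followed by all probe sets, the groups of short oligonucleotides that each give 1 value for a transcript, whose sole gene symbol in the platform annotation was 1 of these 10 symbols. There were 28 such probe sets among the 45101 on the array, for 10 of the 18193 genes measured, and 25 of them were among the 45037 that are not array controls. The other 3 were control probe sets for Tfrc, which were described and not tested. The set was chosen by measured values, since it was assembled around the lower level of Slc40a1 in TPlp+AxL than in AxL in the same arrays, so the difference between the groups is given for the members as a description, with no p. Which members passed the threshold of the fit over the whole table is stated in the same sense, and nothing is supported by it.

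Arrays were hybridised with RNA of whole hippocampi from female SJL/J mice aged 8 to 10 weeks at purchase, 1 mouse to an array. TPlp+AxL mice (n = 5) had been given T cells specific for proteolipid protein (Plp), a protein of myelin, and then an axonal lesion. AxL mice (n = 5) had the axonal lesion, and the labels name no transfer of cells for them. All 10 mice therefore carried the lesion and were sampled 2 days after it, and no hippocampus without a lesion was analysed here. The labels used here do not give the site of the lesion, the number of cells transferred or a control transfer of other T cells, so the effect of T cells directed at Plp and that of any transferred T cells cannot be told apart. The question posed by the design was which transcripts differ in the lesioned hippocampus when these T cells are present.

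Iron enters most cells bound to transferrin through the transferrin receptor, or as the free ion through Slc11a2, and is held in ferritin. Ferroportin is the only known exporter of iron from mammalian cells, and in the brain it is present in endothelium, glia and neurons. The ferroxidases ceruloplasmin and hephaestin oxidise the exported iron so that transferrin can bind it. Hepcidin, a peptide hormone made mainly by the liver, binds ferroportin and causes its degradation, a step at the protein level that RNA arrays do not measure. Iron regulatory proteins also act on the mRNAs themselves, by blocking translation of ferritin and ferroportin mRNA and by stabilising transferrin receptor mRNA when cells are low in iron.

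The values are log2 expression after robust multi-array average (RMA), so a difference of 1 is a doubling, and they carry no detection calls and no true zero. Markers of neurons were bright in all arrays, including Neurod6, a transcription factor of hippocampal pyramidal neurons, at 12.05 ± 0.15 in TPlp+AxL and 12.00 ± 0.10 in AxL (SD, n = 5 each). Markers of the choroid plexus, the epithelium that makes cerebrospinal fluid and lies against the hippocampus, were unequal between arrays. The mean log2 level of 9 such markers, with Ttr, Sostdc1 and Clic6 the brightest, was 9.62 in TPlp+AxL 1, 10.42 in AxL 3 and 9.55 in AxL 5. In the other 7 arrays it was between 8.28 and 8.41. These 3 arrays stand apart, and the values of the members are therefore given with and without them. Across the whole table, 291 probe sets were higher and 85 lower in TPlp+AxL at an adjusted p under 0.05 (limma, adjusted by the method of Benjamini and Hochberg across the 45037 probe sets). With the 3 arrays left out, only 1 probe set, for Chil3, passed in the smaller fit of 7 arrays. With all 10 arrays and the choroid plexus mean as a covariate, 287 passed. The part of the smaller number of mice in the count of 1 was not tested.

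Ferroportin mRNA was lower in TPlp+AxL mice by 1 of its 2 probe sets and nearly level between the groups by the other. Probe set 1417061_at had log2 values of 8.60, 8.55, 8.45, 8.58 and 8.55 in TPlp+AxL mice 1 to 5, against 9.07, 8.91, 9.06, 8.98 and 9.12 in AxL mice 1 to 5. Every TPlp+AxL mouse was below every AxL mouse, and the spread within each group was small beside the gap. The means were 8.55 ± 0.06 in TPlp+AxL and 9.03 ± 0.08 in AxL (SD, n = 5 each), a log2 difference of -0.48 (SE 0.05), or 0.717 times the AxL level. In bulk tissue, fewer cells of a type that makes the transcript and less RNA per cell cannot be told apart.

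Probe set 1448566_at, which the platform assigns to the same transcript accession, had log2 values of 7.74, 7.62, 7.72, 7.83 and 7.75 in TPlp+AxL mice, against 7.81, 7.67, 7.73, 7.74 and 7.88 in AxL mice. The groups overlapped over nearly their whole range, with a log2 difference of -0.03 (SE 0.05). Within the groups, the deviations of the 2 probe sets from their group means had a Pearson r of 0.63 and a Spearman rho of 0.65 over the 10 arrays, with exact permutation p of 0.0701 and 0.0751 (adjusted over 15 such pairs of member probe sets, 0.131 and 0.161). Without the 2 arrays farthest from the median, r was 0.60. The lower level in TPlp+AxL therefore rests on 1 probe set, and which of the 2 better follows the transcript was not tested.

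Without the 3 arrays with high choroid plexus markers, 1417061_at still differed by -0.45 (SE 0.05) on the log2 scale and 1448566_at by -0.01 (SE 0.06), but neither passed the threshold in that smaller fit. Over 18 alternative settings of scaling, normalization, array choice and covariates, the difference of 1417061_at was between -0.51 and -0.45. Of the 25 member probe sets tested, 1417061_at was the only one past the adjusted threshold, in a table where 0.835% of all probe sets passed. Because Slc40a1 was chosen for this contrast in these arrays, nothing is read from that count or from the range over the settings. The groups did not overlap in 2 of the 25 member probe sets, 1417061_at and a dim probe set of Cp, beside 3.59% of all probe sets.

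**Figure D1:**
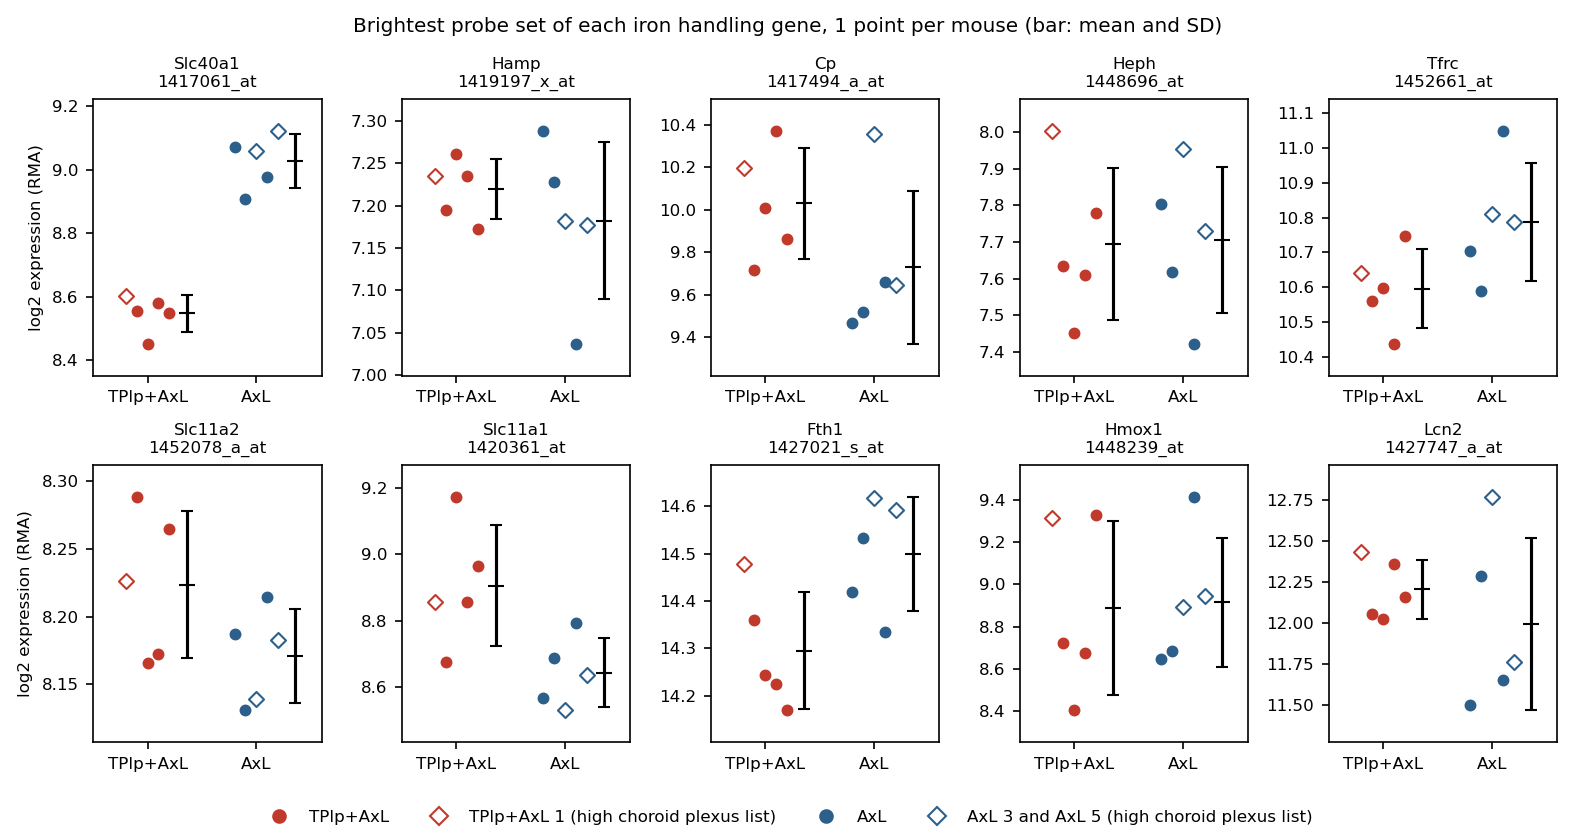
Log2 expression (RMA) of the brightest probe set of each of the 10 iron handling genes, 1 panel a gene with its own axis, 1 point a mouse, TPlp+AxL left of AxL, and bars for the mean and SD (n = 5 each); open diamonds are the 3 arrays with high choroid plexus markers. The 5 TPlp+AxL mice lie between 8.45 and 8.60 for Slc40a1, below all 5 AxL mice at 8.91 to 9.12, while the groups overlap in each of the other 9 panels.

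Hepcidin, the hormone that controls ferroportin at the protein level, showed little difference and lay near the bottom of the array's range. Probe set 1419197_x_at averaged 7.22 ± 0.04 in TPlp+AxL and 7.18 ± 0.09 in AxL (SD, n = 5 each), a log2 difference of 0.04 (SE 0.05). Probe set 1419196_at averaged 6.75 ± 0.04 in TPlp+AxL and 6.72 ± 0.07 in AxL, a log2 difference of 0.03 (SE 0.04), and stood among the 25% of probe sets with the lowest mean signal, below 7.18. Whether Hamp was above background cannot be told from the deposited values, which hold no detection calls. The paralog Hamp2, whose sequence is close to that of Hamp, differed by -0.01 and 0.04 in its 2 probe sets.

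Interleukin 6, the cytokine that induces hepcidin in the liver through STAT3, is given beside it. Il6 had log2 values of 8.31, 7.52, 8.33, 8.96 and 8.38 in TPlp+AxL mice, against 6.57, 6.60, 6.63, 6.55 and 6.65 in AxL mice. All TPlp+AxL mice were above all AxL mice, and Il6 rose by 1.70 (SE 0.19, limma adjusted p = 0.00221, and 0.134 without the 3 arrays). Hamp values of the same mice did not separate the groups. The Hamp promoter is shown because it holds the letters through which known inputs to hepcidin transcription, interleukin 6 and bone morphogenetic protein (BMP), are described as acting. The window is the 250 bases before the annotated start of Hamp in RefSeq's annotation of GRCm38.p6, chr7:30944030-30944279, minus strand, written 5′ to 3′. Capitals mark GGCGCC, the core of the BMP responsive element, and then a match to TTCNNNGAA, the pattern that STAT proteins bind.
Hamp promoter: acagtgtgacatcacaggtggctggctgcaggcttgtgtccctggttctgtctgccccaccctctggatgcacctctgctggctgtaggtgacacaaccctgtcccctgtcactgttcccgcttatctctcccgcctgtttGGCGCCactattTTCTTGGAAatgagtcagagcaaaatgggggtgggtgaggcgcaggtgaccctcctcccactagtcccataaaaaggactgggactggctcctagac
The GGCGCC match lies at bases -109 to -104 from the start and the STAT pattern at -97 to -89. Both patterns read the same on either strand, so 1 search covers both strands, and the matches do not overlap. Among 32851 promoter windows of the same length, 7.02% hold TTCNNNGAA, 9.59% hold GGCGCC and 0.368% hold both. Of the 10 genes, 6 had a window in the table (Cp, Fth1, Hamp, Lcn2, Slc11a1 and Tfrc), and among these GGCGCC was also in a window of Tfrc. A match of letters describes the sequence and says nothing of whether a factor was bound in these mice.

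Ceruloplasmin, a copper ferroxidase that astrocytes carry on their surface and the choroid plexus also makes, had the higher mean in TPlp+AxL mice in 7 of its 8 probe sets, and none of the 8 passed the threshold. The differences ranged from -0.04 to 0.35 on the log2 scale. The brightest, 1417494_a_at, had log2 values of 10.20, 9.72, 10.01, 10.37 and 9.86 in TPlp+AxL mice, against 9.47, 9.52, 10.36, 9.66 and 9.65 in AxL mice. All 5 TPlp+AxL mice were above 4 of the AxL mice, and AxL 3, the array with the highest choroid plexus level, was nearly as high as the highest TPlp+AxL mouse. The difference was 0.30 (SE 0.17) with all arrays, 0.44 (SE 0.14) without the 3 arrays with high choroid plexus markers and 0.46 without AxL 3 alone.

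The same shift with those 3 arrays was seen in the other bright probe sets of Cp. The log2 difference of 1455393_at was 0.22 with all arrays and 0.38 without the 3, that of 1417495_x_at 0.25 and 0.37, and that of 1448734_at 0.35 and 0.42. Within the groups these 3 probe sets moved with 1417494_a_at, with Pearson r of 0.93, 0.91 and 0.88 and Spearman rho of 0.81, 0.88 and 0.89 over the 10 arrays (exact permutation p adjusted over 15 pairs from 0.00694 to 0.00964 for r and from 0.0142 to 0.0398 for rho). Without the 2 arrays farthest from the median, the 3 values of r were 0.65, 0.82 and 0.84. The bright probe sets of Cp thus gave 1 pattern from mouse to mouse rather than separate readings.

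The dimmer probe sets of Cp were less alike. Probe set 1417496_at had log2 values of 7.35, 7.31, 7.53, 7.62 and 7.27 in TPlp+AxL mice, against 7.12, 7.08, 7.25, 7.06 and 7.16 in AxL mice. All TPlp+AxL mice were above all AxL mice by this probe set, by 0.29 on average (SE 0.07), though the lowest TPlp+AxL mouse was only just above AxL 3. Probe set 1448735_at differed by 0.09 (SE 0.10), 1417497_at by -0.04 (SE 0.05) and 1441326_at, also among the dimmest 25%, by 0.04 (SE 0.03). When the 3 arrays were left out, the differences of 1417496_at, 1448735_at and 1417497_at also shifted upward, to 0.35, 0.19 and 0.03. That of 1417497_at thus changed sign, and that of 1441326_at stayed at 0.04. Within the groups, 1448735_at had r = 0.86 with 1417494_a_at (adjusted exact permutation p = 0.0537). Without the 2 farthest arrays that r was 0.44.

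**Figure D2:**
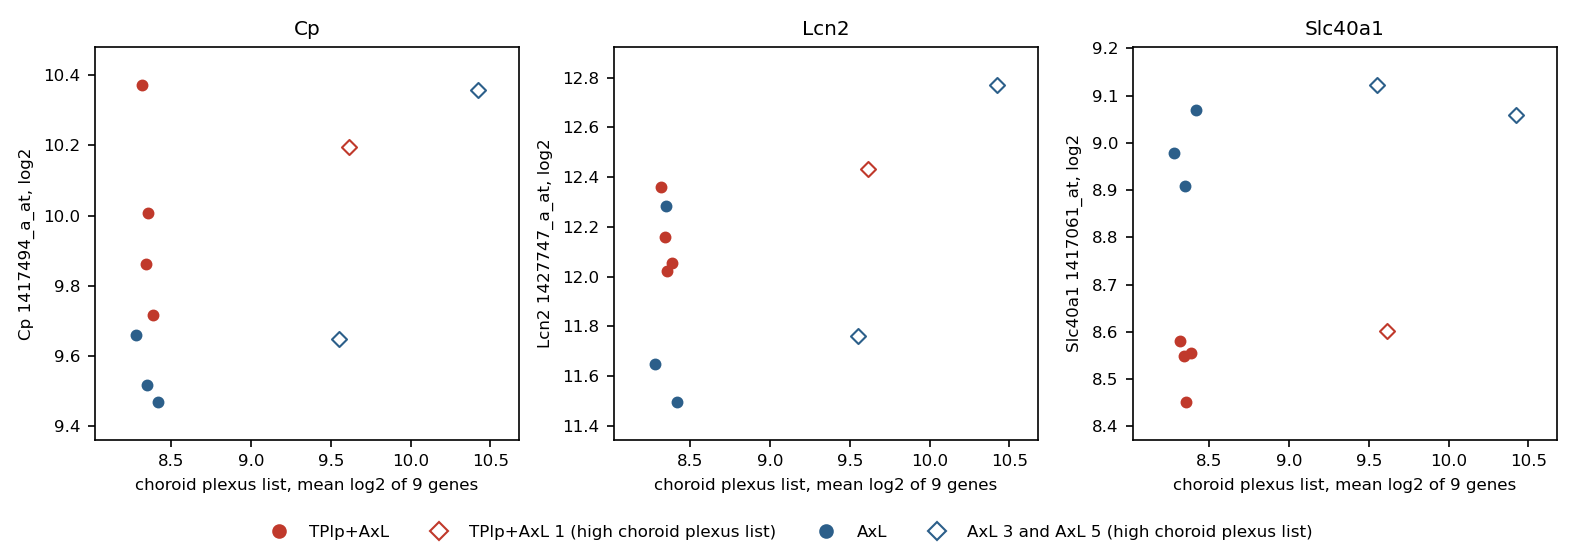
Log2 expression of Cp, Lcn2 and Slc40a1 (brightest probe set of each, 3 panels) against the mean log2 level of 9 choroid plexus markers, 1 point a mouse, with TPlp+AxL in red and AxL in blue; open diamonds are TPlp+AxL 1, AxL 3 and AxL 5. AxL 3, at a choroid plexus level of 10.42, is the highest AxL mouse for Cp (10.36) and the highest of all mice for Lcn2 (12.77). AxL 5, at a level of 9.55, lies within the range of AxL 1, 2 and 4 for Cp (9.65) and Lcn2 (11.76). TPlp+AxL 1, at a level of 9.62, is at 10.20 for Cp and 12.43 for Lcn2. For Slc40a1, AxL 3 and AxL 5 are at 9.06 and 9.12. TPlp+AxL 1, the only TPlp+AxL mouse with a high choroid plexus level, is at 8.60.

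Hephaestin, the membrane-bound ferroxidase, did not separate the groups. Its single probe set, 1448696_at, had log2 values of 8.0, 7.64, 7.45, 7.61 and 7.78 in TPlp+AxL mice, against 7.80, 7.62, 7.95, 7.42 and 7.73 in AxL mice. Values were spread over about the same range in both groups, TPlp+AxL 1 and AxL 3 being the highest of their groups, and the difference was -0.01 (SE 0.11). Without the 3 arrays it was 0.00 (SE 0.10).

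The transferrin receptor, the main route of iron uptake, had a lower mean in TPlp+AxL by its brightest probe set, with overlapping groups. Probe set 1452661_at had log2 values of 10.64, 10.56, 10.60, 10.44 and 10.75 in TPlp+AxL mice, against 10.70, 10.59, 10.81, 11.05 and 10.79 in AxL mice. AxL 4 was the highest of the 10 mice and TPlp+AxL 4 the lowest, and 3 AxL mice were above all TPlp+AxL mice. The difference was -0.19 (SE 0.08), and -0.20 (SE 0.11) without the 3 arrays. It was -0.10 with repeated quantile normalization and with cyclic loess normalization, -0.13 without AxL 4, and the median change of all probe sets at that level was -0.10. The dimmer probe sets 1422966_a_at and 1422967_a_at differed by 0.05 (SE 0.05) and 0.04 (SE 0.04), the second of them among the dimmest 25%. The 3 array control probe sets for Tfrc, all dim, differed by -0.04, -0.04 and -0.05.

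The Tfrc probe sets also did not follow each other from mouse to mouse. Within the groups, 1422966_a_at had a Pearson r of -0.40 and a Spearman rho of -0.49 with 1452661_at (exact permutation p of 0.241 and 0.161; adjusted over 15 pairs, 0.352 and 0.22; r without the 2 farthest arrays, -0.43). No single direction can therefore be given for Tfrc from these arrays.

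Slc11a2, the divalent metal transporter that carries ferrous iron out of endosomes and into cells, was nearly level in all 4 of its probe sets. The brightest, 1452078_a_at, averaged 8.22 ± 0.05 in TPlp+AxL and 8.17 ± 0.04 in AxL (SD, n = 5 each), a difference of 0.05 (SE 0.04). The others differed by 0.01 (SE 0.04) for 1417584_at, -0.09 (SE 0.06) for 1426441_at and 0.03 (SE 0.05) for 1441709_at. Each group's values overlapped the other's in all 4.

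Its paralog Slc11a1, a transporter of metal ions in the phagosome membrane of macrophages, had a higher mean in TPlp+AxL mice without passing the threshold. Probe set 1420361_at had log2 values of 8.86, 8.67, 9.17, 8.86 and 8.97 in TPlp+AxL mice, against 8.57, 8.69, 8.53, 8.79 and 8.64 in AxL mice. Of the TPlp+AxL mice, 4 were above all AxL mice, and TPlp+AxL 2 lay within the AxL range. The difference was 0.26 (SE 0.08), and 0.23 (SE 0.11) without the 3 arrays. Markers of monocytes and macrophages stood higher in the same mice: 6 of 10 measured rose (beside 0.978% of all 18193 genes) and none fell (beside 0.28%), and their median difference was 0.91, against -0.03 for the brightest probe sets of all genes. The mean log2 level of these 10 markers ran from 9.38 to 9.76 in TPlp+AxL and from 8.47 to 8.76 in AxL, and its part in the difference of Slc11a1 was not tested.

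The ferritin heavy chain, the subunit that oxidises iron for storage, gave a difference that depended on how the arrays were scaled. Probe set 1427021_s_at had log2 values of 14.48, 14.36, 14.24, 14.22 and 14.17 in TPlp+AxL mice, against 14.42, 14.53, 14.62, 14.33 and 14.59 in AxL mice. The groups overlapped, with TPlp+AxL 1 the highest of its group. The difference was -0.20 (SE 0.07), and that of 1448771_a_at was -0.16 (SE 0.07).

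Both probe sets of Fth1 are near the top of the scale, where probe sets in general had lower values in TPlp+AxL. The 1181 probe sets with a mean over 12 had a median difference of -0.14, against -0.0034 for all probe sets, and those within 0.25 of the mean of 1427021_s_at had a median of -0.20. With quantile normalization repeated, the difference of 1427021_s_at was 0.02 and that of 1448771_a_at 0.04, and with cyclic loess normalization they were -0.04 and -0.01. The 2 probe sets moved together within the groups, with r of 0.95 and rho of 0.93 (exact permutation p of 0.000417 and 0.000625; adjusted over 15 pairs, 0.00625 and 0.00938; r without the 2 farthest arrays, 0.92). Fth1 thus differed by about as much as other transcripts of its level on the deposited scale.

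Haem oxygenase 1, the inducible enzyme that frees iron from haem, was spread widely in both groups. Probe set 1448239_at had log2 values of 9.31, 8.72, 8.41, 8.67 and 9.33 in TPlp+AxL mice, against 8.65, 8.69, 8.89, 9.41 and 8.94 in AxL mice. TPlp+AxL 1, TPlp+AxL 5 and AxL 4 were high and the others lower, a pattern that crosses the groups, and the difference was -0.03 (SE 0.19). Without the 3 arrays it was -0.13 (SE 0.25).

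Lipocalin 2, which binds iron-carrying siderophores and is made by neutrophils and reactive astrocytes, varied more among the AxL mice than the group means differed. Probe set 1427747_a_at had log2 values of 12.43, 12.05, 12.02, 12.36 and 12.16 in TPlp+AxL mice, against 11.50, 12.29, 12.77, 11.65 and 11.76 in AxL mice. AxL 3 was the highest of the 10 mice and the other AxL mice, apart from AxL 2, were below all TPlp+AxL mice. The SD was 0.18 in TPlp+AxL and 0.53 in AxL, and the difference was 0.21 (SE 0.21), or 0.34 (SE 0.18) without the 3 arrays. Without AxL 1 the difference was 0.09, and without AxL 3 it was 0.41, so its size moved with single AxL mice. It was also 0.13 without AxL 4, and 0.35 and 0.33 with repeated quantile and cyclic loess normalization.

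Markers of neutrophils were higher in part in the same mice. Of 9 measured, 3 rose (beside 0.978% of all genes) and none fell (beside 0.28%), and the median difference of the list was 0.08. S100a8 rose by 1.14 and S100a9 by 1.18 (limma adjusted p = 0.0185 and 0.0161), and Mmp8 by 0.24 (limma adjusted p = 0.037). Without the 3 arrays, the differences of S100a8, S100a9 and Mmp8 were 0.98, 1.06 and 0.25 (limma adjusted p = 0.13, 0.131 and 0.227). The other 6 lay between -0.06 (Csf3r) and 0.14 (Cxcr2), among them the granule genes Camp at -0.05, Mpo at 0.03, Elane at 0.06 and Ngp at 0.08. The mean level of the list ran from 8.14 to 8.24 in TPlp+AxL and from 7.76 to 7.99 in AxL, a gap carried mainly by S100a8 and S100a9. The part of these markers in the values of Lcn2 was not tested.

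**Figure D3:**
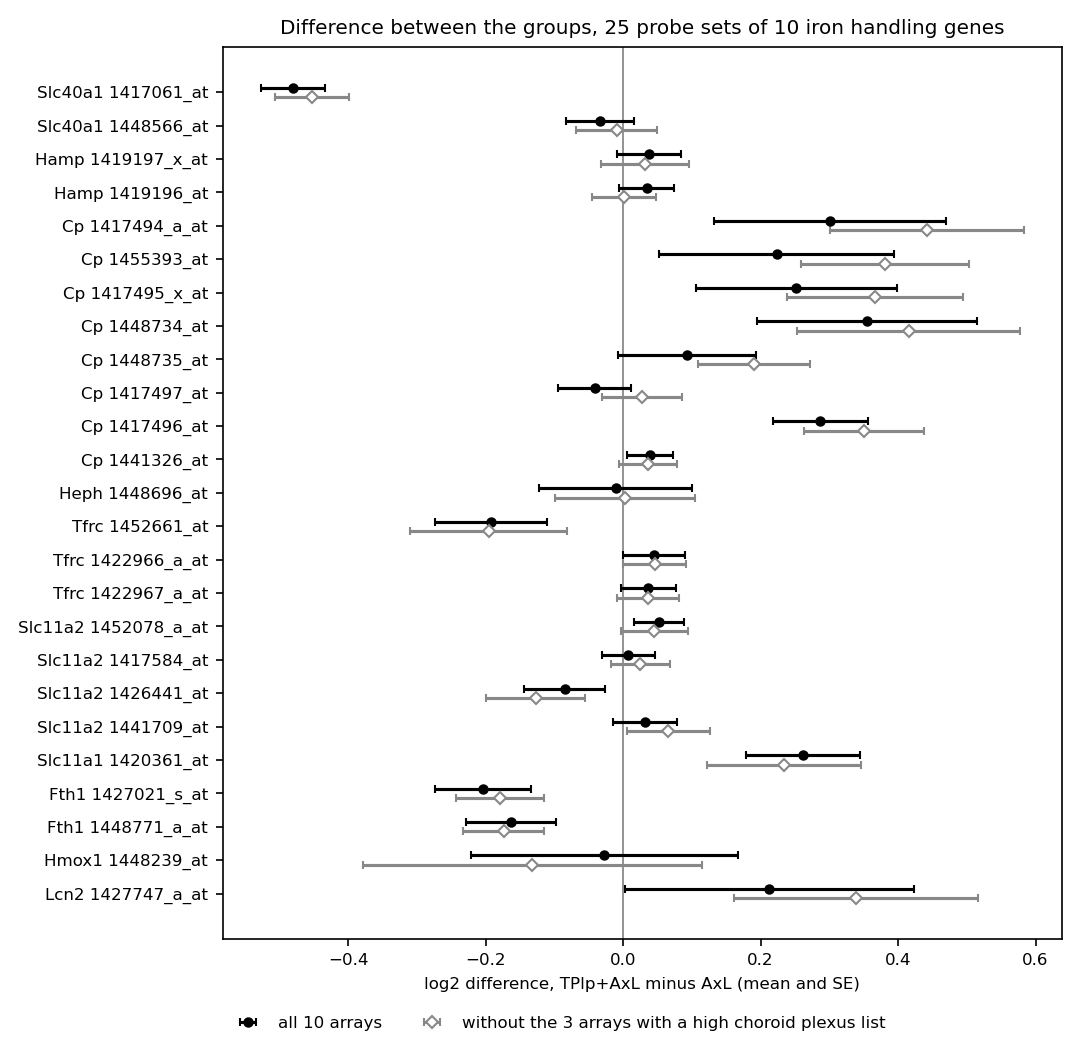
Log2 difference, TPlp+AxL minus AxL, of the 25 probe sets of the 10 genes, ordered by role, with the SE as bars; filled circles are all 10 arrays and open diamonds leave out the 3 arrays with high choroid plexus markers. The difference of Slc40a1 1417061_at, at -0.48, is the farthest from 0, and the positive end is held by Cp 1448734_at at 0.35. All Cp probe sets but 1441326_at shift to the right without the 3 arrays.

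Export was set beside uptake and storage by listing the differences, with no comparison drawn, since Slc40a1 was chosen for its low value in this contrast. Of the 25 probe sets, 16 had a positive and 9 a negative difference, with a median of 0.04 beside -0.0034 for all probe sets tested. The 7 tested probe sets of the uptake genes Tfrc and Slc11a2 lay between -0.19 and 0.05, and both Fth1 probe sets followed the shift of bright probe sets. Of the ferroxidases, Cp had a positive difference in 7 of its 8 probe sets, with none past the threshold, and Heph differed by -0.01. All of these are values of RNA, and neither protein nor iron was measured.

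The other genes of iron and haem metabolism, listed by role, were mostly level too. Of 52 listed genes, 46 had a probe set of their own, and each was represented by its brightest one. A single gene rose (beside 0.978% of all genes) and none fell (beside 0.28%) at an adjusted p under 0.05 by limma, 20 had a positive and 26 a negative difference, and the median was -0.03, as for all genes. That gene was Hp, haptoglobin, an acute phase protein that captures free haemoglobin.

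Hp had log2 values of 7.99, 8.10, 8.08, 8.15 and 7.75 in TPlp+AxL mice, against 7.39, 7.43, 7.48, 7.37 and 7.46 in AxL mice. All TPlp+AxL mice were above all AxL mice, which were tightly grouped. Hp rose by 0.59 (SE 0.07, 1.5-fold, limma adjusted p = 0.00217), with adjusted p from 0.00044 to 0.127 over 19 other settings. The value of 0.127 came without the 3 arrays, where the difference was 0.62. Haptoglobin is also carried by neutrophils, of whose 9 markers 3 rose with a list median of 0.08, as given above, and their part in the difference of Hp was not tested.

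By role, the 12 measured genes of uptake had a median difference of 0.01, the 4 of storage -0.13, the 13 of haem handling -0.11, the 11 of regulation 0.02, the 4 of mitochondrial iron use -0.03 and the 2 partners of ferroxidases and export -0.09. In the roles other than haem none passed, and the gene with the smallest p is given for each. Slc22a17, the receptor for lipocalin 2, had log2 values of 11.91, 11.84, 11.72, 11.69 and 11.92 in TPlp+AxL mice, against 12.04, 11.97, 12.17, 12.21 and 12.07 in AxL mice. The groups did not overlap, and the difference was -0.28 (SE 0.06, limma adjusted p = 0.0661, with 0.0285 to 0.361 over 19 other settings).

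In the remaining roles the gene with the smallest p had a negative difference that did not pass the threshold. Pcbp2, a chaperone that delivers iron to ferritin, differed by -0.24 (SE 0.13, limma adjusted p = 0.428). Bmp6, the BMP ligand that induces hepcidin in the liver, differed by -0.23 (SE 0.09, limma adjusted p = 0.258), and Iscu, the scaffold for iron-sulphur clusters, by -0.23 (SE 0.10, limma adjusted p = 0.337). App, the amyloid precursor protein, which is reported to stabilise ferroportin at the cell surface, differed by -0.16 (SE 0.08, limma adjusted p = 0.392). Slc22a17, Pcbp2, Iscu and App have levels near or above 12, where the median of all probe sets was -0.14, and their differences were nearer to 0 under normalizations that remove that shift. With repeated quantile normalization and with cyclic loess normalization, the difference of App was -0.02 and -0.02, that of Iscu -0.09 and -0.10, that of Pcbp2 -0.14 and -0.13, and that of Slc22a17 -0.16 and -0.16. Single arrays also moved some of them: without AxL 4 the difference of Pcbp2 was -0.12, and without AxL 3 that of Iscu was -0.14.

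The ferrireductase Steap4 was singled out after its values were seen, for the widest difference in the lists. It had log2 values of 9.53, 8.78, 9.02, 9.54 and 9.09 in TPlp+AxL mice, against 8.08, 8.34, 8.87, 8.65 and 8.22 in AxL mice. Only TPlp+AxL 2 lay within the AxL range, and the difference was 0.76 (SE 0.18, limma adjusted p = 0.0832). Without the 3 arrays with high choroid plexus markers it was 0.75 (limma adjusted p = 0.315). Steap4 has 2 probe sets, and only the brighter is given here.

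**Figure D4:**
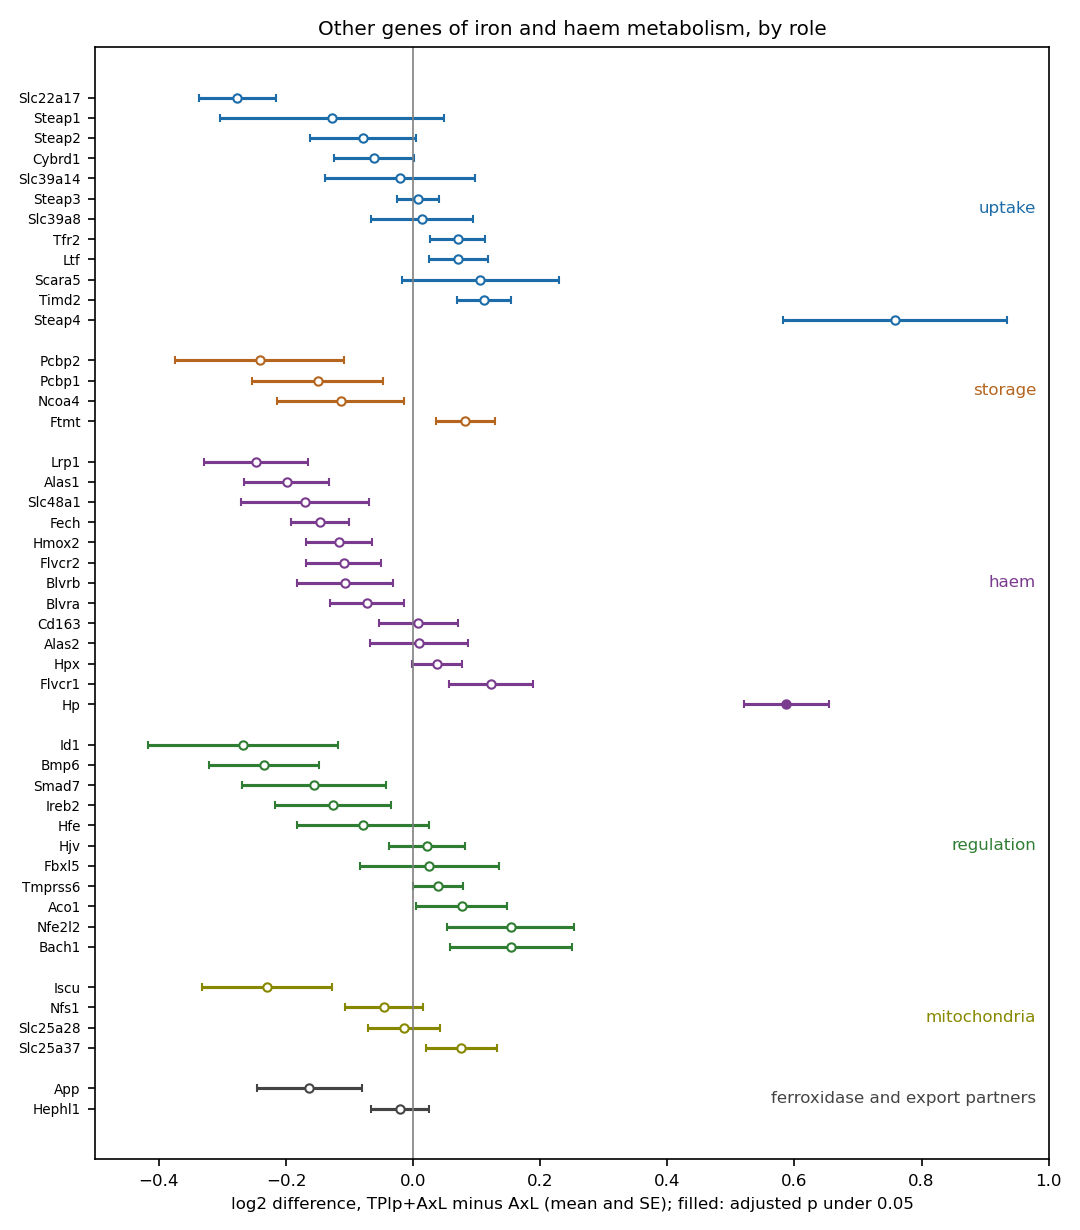
Log2 difference, TPlp+AxL minus AxL, with the SE as bars, of 46 other genes of iron and haem metabolism in 6 roles, each by its brightest probe set; the filled point passed an adjusted p of 0.05. Hp, at 0.59, is the only filled point, Steap4 at 0.76 is farther right with a wider error, and most of the others lie within 0.2 of 0.

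Several cell types of the hippocampus express ferroportin, and their markers were compared in the same arrays. Endothelium, which carries iron across the blood-brain barrier, had a negative difference in all 14 measured markers, with a median of -0.30. Of these, 2 fell (beside 0.28% of all genes): Itm2a by 0.52 (SE 0.08, limma adjusted p = 0.0143), also the brightest of the list, and Ptprb by 0.44 (SE 0.08, limma adjusted p = 0.0331). Without the 3 arrays with high choroid plexus markers, their differences were -0.51 and -0.38 (limma adjusted p = 0.227 and 0.312). The mean level of the list ran from 8.73 to 8.91 in TPlp+AxL and from 8.93 to 9.23 in AxL, without overlap. The part of the endothelial markers in the level of Slc40a1 was not tested between the groups.

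Negative differences prevailed in other lists too. Oligodendrocyte markers (11 measured, among them Mbp, Cnp and Mobp) had a median difference of -0.21, with 10 negative. Homeostatic microglia (9, among them Csf1r, Selplg and Olfml3) had one of -0.10, with 8 negative. Astrocytes (9, among them Aldoc, Gja1 and Gfap) had one of -0.12, with 7 negative. Neurons (10, among them Snap25, Camk2a and Rbfox3) had one of -0.12, with 8 negative. Choroid plexus (9, among them Ttr, Sostdc1 and Clic6) had one of -0.33, farther from 0 than that of endothelium, with 9 negative. In none of these lists did a marker pass in either direction. Mean levels ran from 11.79 to 11.98 for the neuron list and from 11.86 to 12.19 for the astrocyte list. Probe sets in general with a mean over 12 had a median difference of -0.14. That median was 0.0024 with repeated quantile and -0.0083 with cyclic loess normalization. The part of this shift of bright probe sets in the medians of the lists was not tested. The mean level of the oligodendrocyte list ran from 10.62 to 10.86 in TPlp+AxL and from 10.71 to 11.07 in AxL. That of the choroid plexus list ran from 8.31 to 9.62 in TPlp+AxL and from 8.28 to 10.42 in AxL. Without the 3 arrays with high choroid plexus markers, the differences of its markers lay between -0.14 (Kcnj13) and 0.16 (Aqp1). The part of the choroid plexus markers in the level of Slc40a1 was not tested between the groups. Of 7 T cell markers, 2 rose (beside 0.978% of all genes), Cd3g by 0.87 and Cd3d by 0.63 (limma adjusted p = 0.0122 and 0.0302), and 1 fell (beside 0.28%), Thy1, which neurons also express. Thy1 averaged 12.72 in TPlp+AxL and 12.98 in AxL, at the level of that shift. Without the 3 arrays, limma adjusted p was 0.233 for Cd3g, 0.265 for Cd3d and 0.203 for Thy1. Red blood cells, which hold most of the body's iron, had 3 measured markers (Slc4a1, Hba-a1 and Alas2) with a median difference of 0.01 and mean levels from 7.22 to 7.40 in TPlp+AxL and from 7.19 to 7.31 in AxL.

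To set Slc40a1 against the other genes without using the difference between the groups, the deviations of 1417061_at from its group means were correlated with those of 9 other members and 10 marker lists over the 10 arrays. None of the 19 relations passed after adjustment by Pearson r or by Spearman rho, none had an unadjusted exact permutation p of r under 0.05, and the smallest adjusted p were 0.465 and 0.513. The relation with Heph had r = 0.64 and rho = 0.68 (exact p of 0.0627 and 0.054; r without the 2 farthest arrays, 0.60). That with the endothelial list had r = 0.65 and rho = 0.41 (exact p of 0.0734 and 0.302). For this relation r was -0.09 without the 2 farthest arrays and between 0.34 and 0.85 with any 1 array left out. Without the 3 arrays with high choroid plexus markers r was 0.65. That with the neuron list had r = 0.52 and rho = 0.65 (exact p of 0.127 and 0.0504; r without the 2 farthest arrays, 0.28), the smallest unadjusted p of rho among the 19. That with Slc11a1 had r = -0.60 and rho = -0.52 (exact p of 0.0581 and 0.146). Without the 2 farthest arrays its r was -0.39. That with the choroid plexus list had r = 0.56 and rho = 0.52 (exact p of 0.143 and 0.192). Without the 2 farthest arrays its r was 0.54. The 2 farthest arrays are those of Slc40a1 itself. Leaving them out also moved r for Hamp from 0.07 to 0.70 and for Tfrc from 0.06 to -0.64.

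The mice of 1 group differed little in 1417061_at, so these relations rest on small deviations. The smallest p that the rearrangements within both groups allow is 6.94e-05. By the same measure, the 6 genes most like Slc40a1 among 18192 were Fmod (r = 0.92), Pir (0.92), Plin3 (0.91), Cdkn1b (0.91), Gm17767 (0.90) and the endothelial sialomucin Emcn (0.89), over 10 arrays that share their normalization. They were picked as the highest of all genes, so their r has no test, and none of the 6 passed the threshold between the groups.

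**Figure D5:**
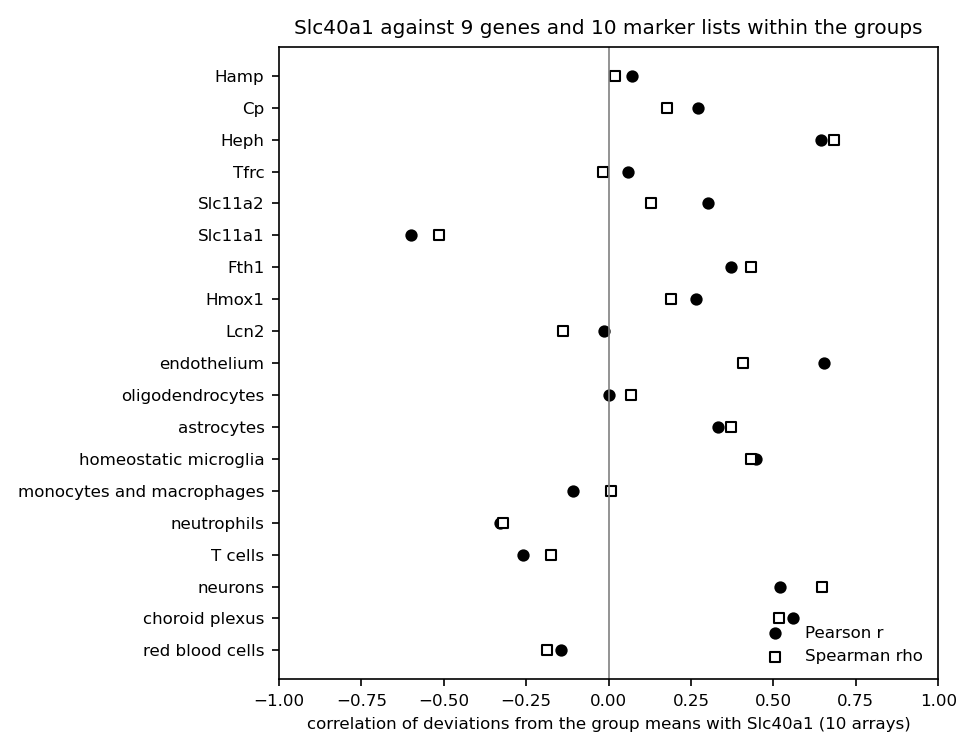
Correlation of deviations from the group means between Slc40a1 1417061_at and 9 other iron handling genes (brightest probe set of each) and 10 cell type marker lists, over 10 arrays; filled circles are Pearson r and open squares Spearman rho. By r, the endothelial list (0.65) and Heph (0.64) are farthest to the right, by rho Heph (0.68) and the neuron list (0.65), and Slc11a1 (-0.60 and -0.52) is farthest to the left by both, and none passed after adjustment over the 19 relations.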

How the data were processed

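Biotinylated cRNA of 10 hippocampi was hybridised to Affymetrix arrays, per the labels' protocols, 1 array a mouse. The deposited values are on the log2 scale and were made by the authors with RMA, as the submitters' processing notes say. Its software is not given in the sources used here. They ran from 5.45 to 14.86, with array medians from 7.88 to 7.92 and 0 missing values. The number of arrays limits the precision.

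From these values, limma 3.58.1 (lmFit and eBayes without trend) in R 4.3.3 compared TPlp+AxL with AxL without a filter or covariates, with Benjamini-Hochberg adjustment over 45037 probe sets (64 controls left out) and a threshold of 0.05. The limma p-values set the difference between the groups against the spread between mice within them, using a variance estimate that draws on all probe sets. The script was tested on simulated data. Platform symbols were updated through Entrez identifiers for 34741 of 34945 probe sets with 1 symbol; 932 listed several and 9160 none. For a gene with several probe sets, the one of highest mean stands for it.

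Named are all members, the pathway genes past the threshold or else the 1 with the smallest p of each role, the 3 brightest markers of a list, and the 6 genes most like Slc40a1. Members, lists and rules were chosen with earlier results of these data known. Same-numbered mice did not deviate together (r from -0.224 to 0.363), so the numbers were not treated as pairs. Relations within groups used exact two-sided permutation within both groups (14400 rearrangements). Alternatives were a trended variance, a filter on dim probe sets, 3 scalings, array weights, the replicate number as a block, the choroid plexus mean as a covariate, other choices of probe sets, each array left out, and, chosen after seeing the data, 3 arrays left out together.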

Additional observations from a re-analysis of the deposited data

Results flagged for a closer look

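In 6 of 50 groups of 5 mice (25 probe sets in both groups), 1 mouse stood apart, with a gap to its nearest neighbour of over 0.71 of the group's range; chance gives about 1 in 20. The 50 groups are not independent, since they share the same 10 mice and probe sets of 1 gene can move together. Nothing is therefore read from the count of 6. AxL 3, the array with the highest choroid plexus markers, was high among AxL mice in 3 probe sets of Cp: 10.36 by 1417494_a_at (the next was 9.66), 9.84 by 1455393_at (the next was 9.07) and 8.50 by 1448735_at (the next was 8.06). The part of choroid plexus tissue in these 3 values was not tested. In Slc11a2, TPlp+AxL 1 was low by 1417584_at at 8.065 (the next was 8.17), AxL 4 was high by 1426441_at at 8.37 (the next was 8.12), and AxL 2 was low by 1441709_at at 7.125 (the next was 7.26). These 3 values concern 3 mice and 3 probe sets, and the gaps are all under 0.25 on the log2 scale.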

How the results depend on the processing

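The count of probe sets past the threshold, 376, was 753 with array weights, 241 with the replicate block and between 185 and 460 with 1 array left out (185 without TPlp+AxL 4, 240 without TPlp+AxL 3, 243 without TPlp+AxL 5, 220 without AxL 5), and without the 3 arrays with high choroid plexus markers it was 1. With all arrays and the choroid plexus mean as a covariate the count was 287. The 291 higher and 85 lower became 269 and 210 with array medians subtracted and 348 and 43 with cyclic loess normalization. The count of members past the threshold was 1 (Slc40a1 1417061_at) in the other settings and 0 without the 3 arrays, and since the set was chosen around that gene in this contrast, no stability is read from it. The block for the replicate number left the counts of members and of pathway genes at 1. Among the pathway genes the count of 1 became 2 with array medians subtracted and 3 with array weights, where Slc22a17 (adjusted p = 0.0392 and 0.0285) or Slc22a17 and Steap4 joined Hp. It was 1 to 2 with 1 array left out, with Steap4 added without TPlp+AxL 2 and Slc22a17 (adjusted p = 0.0443) without AxL 2, and it was 0 without the 3 arrays. The relations of Slc40a1 gave 0 in each setting run. Of 447 differences of member probe sets under the alternatives, 443 moved by less than 1 SD and the other 4 were those of Fth1 under repeated quantile and cyclic loess normalization. The causes were not tested. Dim probe sets, such as those of Hamp, can hide a difference, since no signal over background was given.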
